A study of Mus musculus with 9 samples.

Results

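The genes described here encode the Toll-like receptor adaptors Myd88, Tirap, Ticam1 and Ticam2, the interleukin-1 receptor-associated kinases Irak1, Irak2, Irak3 and Irak4, the ubiquitin ligase Traf6 and the kinase Map3k7 (TAK1). They were taken by gene symbol from the deposited expression table, which held all 10 among 54532 genes. All 10 were also among the 11585 genes tested, with at least 1 FPKM in every library. Expression had been measured by mRNA sequencing in RAW264.7 cells, a mouse macrophage line established from ascites of a virus-induced tumor. It was labelled wild type, and all libraries are of this 1 line. Each of 3 groups had 3 libraries. Control cells were untreated. LPS cells had received lipopolysaccharide at 1 μg/ml for 6 h, and LPS + G-CDs cells had received the same LPS with 400 μg/ml of carbon dots made from the plant Glycyrrhiza. LPS was thus common to both treated groups, and a group with G-CDs alone was not analysed here. The carbon dots are named in the sample titles and in the study's methods, while the treatment label of these libraries names LPS. The study mentions independent experiments for its quantified panels without saying whether the sequenced libraries are among them. Whether the libraries came from separate cultures is thus not clear, and p-values measure the spread between these libraries.

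Toll-like receptors pass their signal on through adaptors that bind the intracellular part of the receptor. TIRAP bridges MyD88 to TLR4, the receptor for LPS, at the cell surface, and TRAM (Ticam2) bridges TRIF (Ticam1) to TLR4 once it has been taken into endosomes. MyD88 assembles with IRAK4, IRAK1 and IRAK2 into a complex that engages TRAF6, whose ubiquitin chains activate TAK1 and through it NF-κB and MAP kinases. TRIF leads to type I interferon genes. IRAK3, also called IRAK-M, is known as a brake on this signal that macrophages make after stimulation.

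Reads on genes numbered 14752400 to 17312255 in a library, and the 10 genes rested on 75 to 2842 reads per library. FPKM values are reads divided by gene length and by a library size that the authors set. That size was 1.11 to 1.14 times the reads on genes in control, 0.929 to 0.936 times in LPS and 0.88 to 0.98 times in LPS + G-CDs. All 7 macrophage markers examined were at 6.41 FPKM or more in every library, and the 15 markers of T, B, epithelial, fibroblast and endothelial cells never exceeded 0.861 FPKM. In bulk RNA, fewer expressing cells and less RNA per cell cannot be told apart.

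The genes lie apart in the genome (GRCm38). Myd88 (ENSMUSG00000032508) is at chr9:119335934-119341411 and Tirap (ENSMUSG00000032041) at chr9:35184551-35200291. Ticam1 (ENSMUSG00000047123) is at chr17:56269319-56276786. Irak1 (ENSMUSG00000031392) is at chrX:74013914-74023918, Irak2 (ENSMUSG00000060477) at chr6:113638467-113695026, Irak3 (ENSMUSG00000020227) at chr10:120141648-120202130 and Irak4 (ENSMUSG00000059883) at chr15:94543643-94581815. Traf6 (ENSMUSG00000027164) is at chr2:101678429-101701669 and Map3k7 (ENSMUSG00000028284) at chr4:31964097-32023467. The position of Ticam2 (ENSMUSG00000056130) differed between the table and the annotation used here and is not given. Some exons are shared with neighbors. In the annotation used here, Ticam2 shares 838 exon bases, or 14.5% of its exon length of 5792 bases, with Tmed7 on the same strand. The deposited length of Ticam2 is 3928 bases, so the share behind its FPKM may differ. On the opposite strand, the protein-coding gene Acaa1a covers 11.3% of the Myd88 exons, the antisense gene Gm39318 9.05% of those of Tirap and the protein-coding gene Twf1 7.87% of those of Irak4. Smaller overlaps on that strand are those of the protein-coding gene Tmbim4 with Irak3 (5.22%), of Gm43963 with Irak2 (4.44%) and of the protein-coding gene Srpr with Tirap (0.791%). Whether counting used strand was not given in the sources used here, so reads in these stretches cannot be assigned with certainty, and Ticam2 is the least certain of the 10.

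Promoter sequences were available from RefSeq (GRCm38.p6) for 9 of the 10 genes, as windows of 300 bases with 250 before the transcription start. They were searched on both strands for the NF-κB consensus of 10 bases, the AP-1 motif TGANTCA and the interferon-stimulated response element GAAANNGAAA. Of all 32851 promoters in the table, 8.46%, 7.81% and 3.44%, respectively, held a match. Matches of the NF-κB consensus were present in 2 of the 9 genes, Irak1 and Map3k7, a match of the interferon element in Myd88, and none of AP-1. No window held matches of more than 1 motif. The matches are shown first, with the matching bases in capitals. They begin 21, 92 and 40 bases before the start, which for Irak1 is the more downstream of 2 listed starts, and each stretch is written 5′ to 3′ on the strand of the gene. The Myd88 stretch lies inside the gene span given above, so the RefSeq start used for it is not the 5′ end of that span.
Irak1, chrX:74023919-74023964, minus strand: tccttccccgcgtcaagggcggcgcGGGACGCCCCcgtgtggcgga
Map3k7, chr4:31963990-31964049, plus strand: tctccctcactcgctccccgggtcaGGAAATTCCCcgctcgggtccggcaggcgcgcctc
Myd88, chr9:119340024-119340083, minus strand: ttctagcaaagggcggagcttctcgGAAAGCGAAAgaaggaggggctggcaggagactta

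The next sequences are the 250 bases before the start of Irak2, Irak3 and Ticam1, the genes with the largest differences between LPS and control. Nothing is in capitals because these windows held no match of any of the 3 motifs, which says only that these letters are not in them. The window of another listed Irak3 start, not shown, held none either.
Irak2, chr6:113638217-113638466, plus strand: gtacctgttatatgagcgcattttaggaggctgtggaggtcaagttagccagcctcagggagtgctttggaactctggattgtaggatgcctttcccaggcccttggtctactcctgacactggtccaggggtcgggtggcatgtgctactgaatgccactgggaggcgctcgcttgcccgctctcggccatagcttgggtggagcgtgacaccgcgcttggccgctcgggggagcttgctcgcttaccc
Irak3, chr10:120202131-120202380, minus strand: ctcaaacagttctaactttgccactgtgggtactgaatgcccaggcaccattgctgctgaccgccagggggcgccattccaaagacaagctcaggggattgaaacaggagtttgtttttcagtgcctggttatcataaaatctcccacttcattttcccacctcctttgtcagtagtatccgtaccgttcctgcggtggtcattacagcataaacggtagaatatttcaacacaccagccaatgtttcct
Ticam1, chr17:56276768-56277017, minus strand: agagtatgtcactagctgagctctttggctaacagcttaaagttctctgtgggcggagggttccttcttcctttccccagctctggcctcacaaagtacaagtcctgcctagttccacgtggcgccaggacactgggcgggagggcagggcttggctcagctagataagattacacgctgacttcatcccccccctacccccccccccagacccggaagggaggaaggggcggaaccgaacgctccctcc

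The comparison of LPS with control asks how the receptor-proximal machinery itself responded to LPS. At 6 h, LPS-treated cells held more transcript of Irak2, Irak3, Ticam1, Tirap and Myd88, while none of the 10 genes was called lower. Genes were called with limma on log2(FPKM + 1) at a Benjamini-Hochberg adjusted p under 0.05 over all 11585 genes. By this rule 5 of the 10 were higher, against 15.8% of all tested genes, and 0 were lower, against 15.6%. The LPS and control libraries did not overlap for 5 genes that were higher, against 27.4% of all genes, and for 2 that were lower, Ticam2 and Irak1, against 25.1%. The median difference of the 10 genes was 0.48 on the log2 scale and that of all tested genes 0.016. With each library rescaled to TPM and the filter applied to TPM, 14074 genes were tested in place of 11585. Their median difference was -0.22, and 1117 of them (7.94%) were called higher and 3268 (23.2%) lower, against 1827 higher and 1803 lower by FPKM. In that setting 3 of the 10 genes were called higher and 1 lower.

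**Figure D1:**
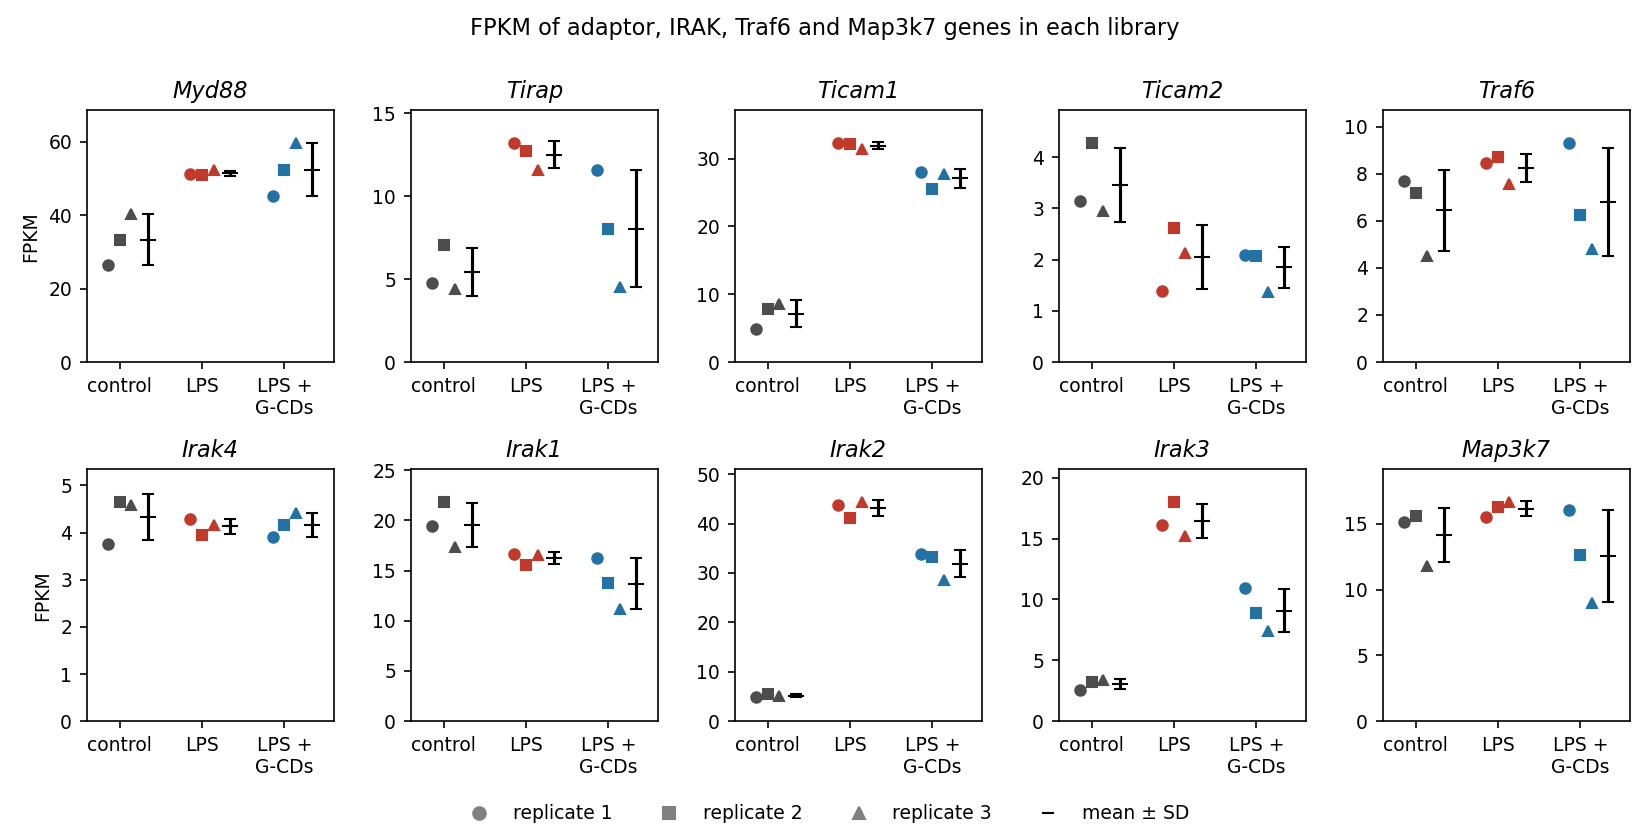
FPKM (linear axes from 0) of the 10 genes in each of the 9 libraries, by group, with replicates 1 to 3 as circles, squares and triangles and the mean ± SD of 3 libraries beside them. Irak2, Irak3 and Ticam1 sit far above control in both treated groups, and Irak4 stays between 3.76 and 4.64 FPKM throughout.

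Among the adaptors, the largest difference was in Ticam1. Its FPKM was 4.90, 7.87 and 8.62 in control replicates 1 to 3, 32.3, 32.1 and 31.4 in LPS, and 28.0, 25.5 and 27.8 in LPS + G-CDs. All 6 treated libraries were above all control libraries. The difference between LPS and control was 2.05 ± 0.17 on the log2 scale (SE, adjusted p = 3.42e-05), or 4.48-fold in mean FPKM. Myd88, the adaptor used by nearly all Toll-like receptors, was at 26.5, 33.2 and 40.2 FPKM in control, 51.1, 50.8 and 52.2 in LPS, and 45.3, 52.2 and 59.6 in LPS + G-CDs. The control libraries were spread over a wide range, and every LPS library lay above them. Its difference was smaller, 0.63 ± 0.17 on the log2 scale (SE, adjusted p = 0.0195). The call was lost at an adjusted p of 0.0626, 0.0615 or 0.0666 when LPS replicate 1, 2 or 3 was left out, and at 0.0660 under TPM scaling, within a range of 0.000507 to 0.0666 over 21 alternatives. The difference was 0.63, 0.64 and 0.62 without these libraries and 0.37 under TPM scaling.

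Of the bridging adaptors, Tirap rose with LPS and Ticam2 did not pass the test. Tirap was at 4.79, 7.07 and 4.42 FPKM in control, 13.2, 12.7 and 11.6 in LPS, and 11.6, 7.999 and 4.52 in LPS + G-CDs. LPS libraries were above control and agreed closely with each other, while the LPS + G-CDs libraries ranged from the LPS level down to the control level. The log2 difference between LPS and control was 1.09 ± 0.28 (SE, adjusted p = 0.0166), and without control replicate 1 or 3 or LPS replicate 1 or 2 the adjusted p was 0.0529, 0.0538, 0.0576 and 0.0545. Under TPM scaling it was 0.116, the highest of 21 alternatives, and the lowest was 0.00254. Ticam2 was at 3.15, 4.28 and 2.95 FPKM in control, 1.38, 2.62 and 2.14 in LPS, and 2.10, 2.07 and 1.38 in LPS + G-CDs. Every treated library was below every control library, on 75 to 286 reads each. The log2 difference of -0.56 ± 0.20 (SE) between LPS and control did not pass the test (adjusted p = 0.0590). It passed in 5 of 20 alternatives, namely with the replicate number as a block (adjusted p = 0.0362), with length and GC trends removed (0.0387), with quantile normalization (0.0397), without LPS + G-CDs replicate 3 (0.0445) and under TPM scaling (0.0474). The highest adjusted p was 0.201.

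Summed over the 4 adaptors, expression was 49.3 ± 8.84 FPKM in control, 97.9 ± 0.45 in LPS and 89.3 ± 3.42 in LPS + G-CDs (SD, n = 3). Because FPKM is per length, the shares of this sum compare levels between genes as far as the deposited gene lengths fit the transcripts present. For Ticam2 that length differed from the annotation used here. Myd88 made up 67.4% ± 4.11 of the adaptor sum in control and 52.5% ± 1.00 in LPS, and Ticam1 14.3% ± 1.58 and 32.6% ± 0.359 (SD, n = 3). The ratio of Ticam1 to Myd88 within a library does not depend on the scaling between libraries. It was 0.185, 0.237 and 0.214 in control and 0.632, 0.631 and 0.601 in LPS, so the groups did not overlap. The exact permutation test gave p = 0.1, the smallest that 3 libraries against 3 allow, for this ratio (log2 difference 1.56) and for that of Tirap to Myd88 (0.59). Without control replicate 3 the difference in the Tirap to Myd88 ratio was 0.31, and with trends in gene length and GC removed it was 0.33 (exact permutation p = 0.2 for each). Between LPS + G-CDs and LPS the Ticam1 to Myd88 ratio differed by -0.26 (exact permutation p = 0.2) and the Tirap to Myd88 ratio by -0.76 (exact permutation p = 0.3). The latter was -0.30 without LPS + G-CDs replicate 3 and -1.17 without replicate 1.

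Of the 4 kinases of the IRAK family, Irak2 and Irak3 rose with LPS, and Irak1 and Irak4 did not pass the test. Irak2, which carries on the signal after IRAK1, was at 4.93, 5.40 and 5.17 FPKM in control, 43.8, 41.2 and 44.3 in LPS, and 33.8, 33.1 and 28.7 in LPS + G-CDs. The 3 groups did not overlap at all. The difference between LPS and control was 2.84 ± 0.11 on the log2 scale (SE, adjusted p = 2.06e-07), or 8.34-fold in mean FPKM. Irak3, the inhibitory member, was at 2.55, 3.21 and 3.41 FPKM in control, 16.1, 18.0 and 15.2 in LPS, and 10.95, 8.89 and 7.42 in LPS + G-CDs. Here too the 3 groups were separate, with LPS + G-CDs in between. The difference between LPS and control was 2.11 ± 0.15 (SE, adjusted p = 1.27e-05), or 5.38-fold in mean FPKM.

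Values of the other members overlapped or nearly met between groups. Irak1, the first kinase described in the family, was at 19.4, 21.8 and 17.4 FPKM in control, 16.7, 15.6 and 16.5 in LPS, and 16.2, 13.7 and 11.1 in LPS + G-CDs. Its LPS libraries lay just below the lowest control library, with a log2 difference of -0.25 ± 0.15 (SE, adjusted p = 0.247). This difference was -0.52 under TPM scaling, -0.38 with quantile normalization and -0.15 with trends in gene length and GC removed. The lowest adjusted p over 21 alternatives was 0.0992. Irak4, the kinase that starts the cascade in the MyD88 complex, was at 3.76, 4.64 and 4.59 FPKM in control, 4.28, 3.95 and 4.16 in LPS, and 3.90, 4.16 and 4.41 in LPS + G-CDs. Its groups overlapped in both comparisons. The 95% confidence interval of the Irak4 difference between LPS and control ran from -0.30 to 0.20 on the log2 scale.

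The makeup of the family accordingly differed between groups. In control, Irak1 made up 60.8% ± 3.45 of the summed IRAK FPKM, Irak2 16.1% ± 0.762, Irak4 13.5% ± 1.41 and Irak3 9.55% ± 1.46 (SD, n = 3). In LPS, Irak2 made up 53.9% ± 1.47, Irak3 20.6% ± 2.02, Irak1 20.3% ± 0.469 and Irak4 5.17% ± 0.138. In LPS + G-CDs the shares were 54.3% ± 1.96 for Irak2, 23.2% ± 1.77 for Irak1, 15.4% ± 1.34 for Irak3 and 7.17% ± 1.28 for Irak4. The family sum was 32.1 ± 2.58 FPKM in control, 79.9 ± 1.09 in LPS and 58.8 ± 6.68 in LPS + G-CDs. Irak1 was therefore the main IRAK transcript in control cells and Irak2 in both treated groups, with no overlap between libraries in either order.

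**Figure D2:**
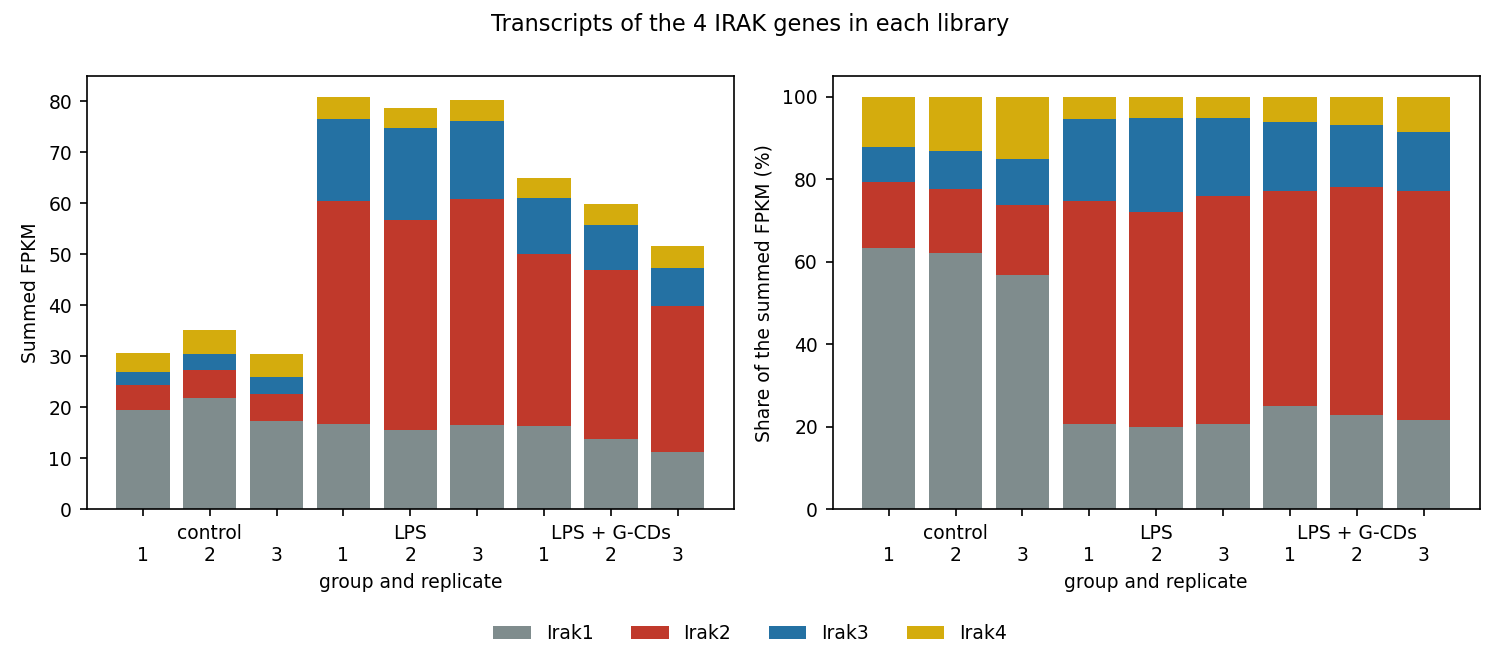
Summed FPKM of Irak1 to Irak4 in each library (left) and each gene's share of that sum in percent (right), by group and replicate, with each bar stacked from 0. The Irak2 share is 15.4% to 16.9% in control libraries and 52.0% to 55.5% in the 6 treated ones, and the summed level falls between control and LPS in LPS + G-CDs.

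Ratios within a library gave the same picture without any scaling. Irak2 to Irak4 was 1.31, 1.16 and 1.13 in control, 10.2, 10.4 and 10.6 in LPS, and 8.66, 7.97 and 6.50 in LPS + G-CDs. Irak3 to Irak4 was 0.679, 0.692 and 0.743 in control, 3.76, 4.55 and 3.65 in LPS, and 2.81, 2.14 and 1.68 in LPS + G-CDs. Both ratios were separate in all 3 groups. Irak3 to Irak2, the brake against the kinase, was 0.518, 0.594 and 0.659 in control, 0.367, 0.437 and 0.343 in LPS, and 0.324, 0.268 and 0.259 in LPS + G-CDs. It was thus lower in LPS than in control and lower again with G-CDs, in every library. For these 3 ratios the exact permutation test gave p = 0.1 in both comparisons, the smallest possible. Over the 12 tests of 6 ratios in 2 comparisons, none could pass 0.05 even before adjustment. The ratio of Irak1 to Irak4 overlapped between groups in both comparisons (exact permutation p = 0.4 in each).

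Traf6 and Map3k7, which act after the IRAK complex, did not pass the test. Traf6 was at 7.71, 7.17 and 4.49 FPKM in control, 8.44, 8.70 and 7.57 in LPS, and 9.30, 6.26 and 4.82 in LPS + G-CDs. Map3k7 was at 15.1, 15.6 and 11.8 FPKM in control, 15.6, 16.3 and 16.7 in LPS, and 16.0, 12.6 and 8.99 in LPS + G-CDs. For both genes, replicate 3 was the lowest library of control and of LPS + G-CDs, and the groups overlapped. The log2 differences between LPS and control were 0.34 ± 0.23 for Traf6 and 0.19 ± 0.19 for Map3k7 (SE, adjusted p = 0.318 and 0.510). Without control replicate 3 they were 0.13 and 0.07. Under TPM scaling that of Traf6 was 0.11 and that of Map3k7 turned to -0.07, and with trends in gene length and GC removed they were 0.17 and 0.06.

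The order of the 10 levels in FPKM also differed between groups. In control it ran from Myd88 through Irak1 and Map3k7, each separate from the next, to Ticam1, Traf6, Tirap and Irak2, of which each overlapped the next. Irak4, Ticam2 and Irak3 came last and likewise overlapped. In LPS, Myd88, Irak2 and Ticam1 led without overlap. Irak3, Irak1 and Map3k7 followed with means of 16.4, 16.3 and 16.2 FPKM and overlapping libraries, and Tirap, Traf6, Irak4 and Ticam2 came after them, each separate from the next. In LPS + G-CDs the same first 3 genes led without overlap. Irak1, Map3k7, Irak3, Tirap and Traf6 overlapped in a chain, and Irak4 and Ticam2 were separate from it and from each other. Irak3 thus had rank 10 in control and rank 4 in LPS.

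The comparison of LPS + G-CDs with LPS asks what the carbon dots changed in LPS-treated cells. For Irak3, Irak2, Tirap and Ticam1 all LPS + G-CDs libraries lay below all LPS libraries, but limma called 0 of the 10 genes in either direction. Of all tested genes 0.25% were called higher and 0.242% lower, so few calls were made overall. Libraries did not overlap for 4 of the 10 genes that were lower, against 15% of all genes, and for 0 that were higher, against 12.9%. Of these 4, Tirap was nearly tied, at 11.590 FPKM in LPS + G-CDs replicate 1 against 11.598 in LPS replicate 3. At an unadjusted p under 0.05, 3 of the 10 were lower, against 8.04% of all genes. At the study's own threshold of an unadjusted p under 0.01 and over 1.5-fold, 1 was lower, Irak3, against 1.24%. The test with limma's voom on the recovered reads also called 0 of the 10. The median difference of the 10 genes was -0.26 and that of all tested genes 0.017. This comparison and that of LPS with control share the LPS libraries.

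**Figure D3:**
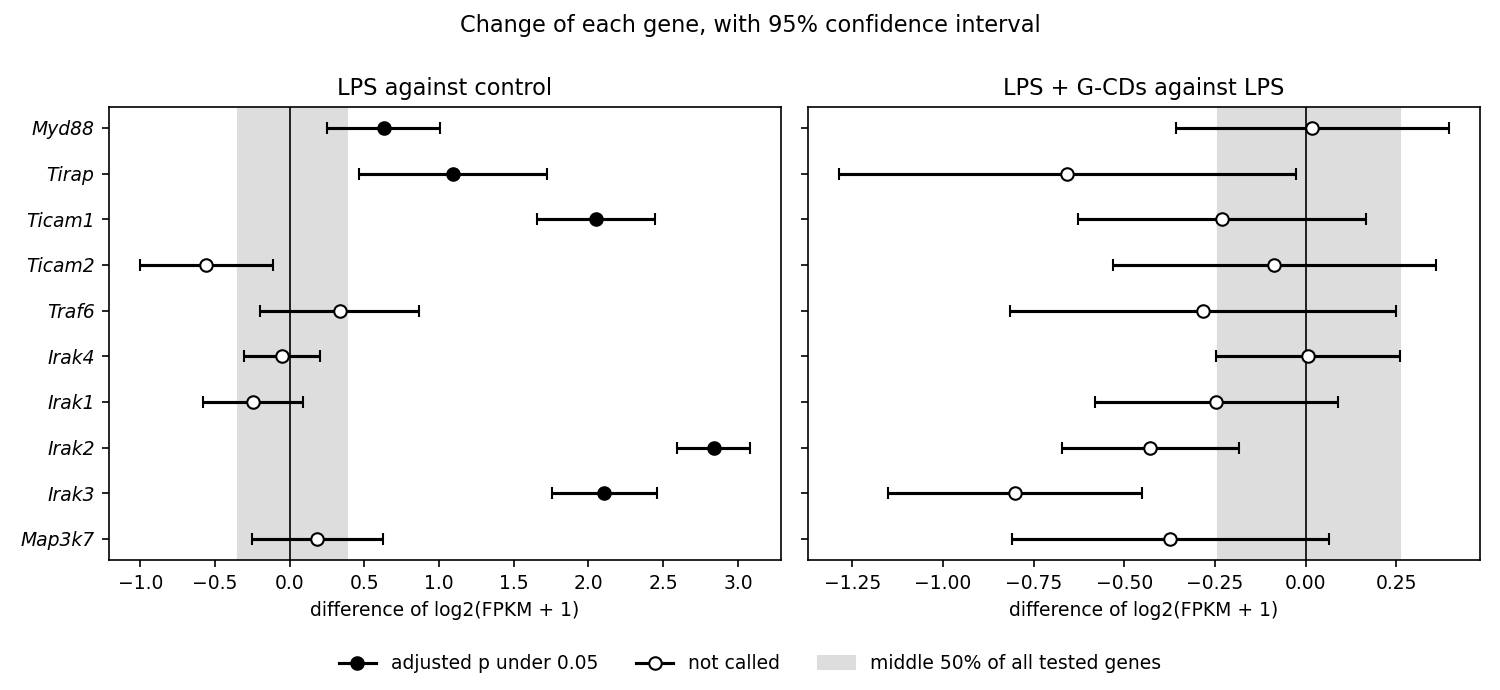
Difference in log2(FPKM + 1) of each gene with its 95% confidence interval from limma, for LPS against control (left) and LPS + G-CDs against LPS (right), with filled circles for an adjusted p under 0.05 and a gray band for the middle 50% of all 11585 genes. The 5 filled circles are all on the left, and the intervals of Irak3, Irak2 and Tirap on the right lie below 0.

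Irak3 had the largest difference, -0.80 ± 0.15 on the log2 scale (SE, unadjusted p = 0.000591, adjusted p = 0.0856), or 0.553-fold in mean FPKM. Without LPS + G-CDs replicate 1 it was -0.93 and passed the test (adjusted p = 0.0305), within a range of 0.0305 to 0.377 over 21 alternatives. The same omission raised the calls over all tested genes from 57 to 256, of which 150 were lower. Irak2 differed by -0.43 ± 0.11 (SE, unadjusted p = 0.00326, adjusted p = 0.172), or 0.739-fold, and Tirap by -0.66 ± 0.28 (SE, unadjusted p = 0.0428, adjusted p = 0.320). Their adjusted p stayed above 0.05 under every one of 21 alternatives, with lowest values of 0.0588 for each. Without LPS + G-CDs replicate 3 the Tirap difference was -0.34, and without replicate 1 it was -0.94. Ticam1 differed by -0.23 ± 0.17 (SE, adjusted p = 0.442), with all 3 LPS + G-CDs libraries below the lowest LPS library.

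The other 6 genes overlapped between both groups. Map3k7 differed by -0.37 (95% confidence interval -0.81 to 0.06), Traf6 by -0.28 (-0.81 to 0.25), Irak1 by -0.25 (-0.58 to 0.09) and Ticam2 by -0.09 (-0.53 to 0.36). Without LPS + G-CDs replicate 3 the differences were -0.17 for Map3k7, -0.09 for Traf6 and -0.11 for Irak1, and that of Ticam2 turned to 0.04. Traf6 was at -0.50 without LPS + G-CDs replicate 1 and at -0.10 with the trend in gene length removed. Under TPM scaling, where the median of all tested genes was -0.14, Traf6 was at -0.47, Irak1 at -0.42 and Ticam2 at -0.24. Myd88 and Irak4 were closest to 0, at 0.02 (-0.36 to 0.40) and 0.01 (-0.25 to 0.26), and both turned negative under TPM scaling. These intervals leave room for differences of the size seen in Irak2 for all of them but Myd88 and Irak4.

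The 3 LPS + G-CDs libraries differed from each other with gene length. All tested genes were divided by length into 5 groups of equal size. The longest, with a median length of 9131 bases, deviated on average from the group mean by 0.26 on the log2 scale in replicate 1 and by -0.25 in replicate 3. The shortest, with a median of 684 bases, deviated by -0.14 and 0.18. Control replicate 3 deviated by -0.22 in the longest and by 0.11 in the shortest group. Of the 10 genes, 8 had their highest LPS + G-CDs value in replicate 1 and 7 their lowest in replicate 3. The deviations in replicates 1 and 3 were 0.56 and -0.63 for Tirap (4929 bases), 0.44 and -0.38 for Traf6 (7883 bases), and 0.26 and -0.25 for Irak3 (3676 bases). Myd88, the shortest of the 10 at 2576 bases, deviated the opposite way, by -0.20 and 0.19. So did Irak4, by -0.073 and 0.070, although at 5021 bases it is longer than Tirap and lies in a length group that deviated by 0.075 and -0.077. With the trend in gene length removed from each library, Irak3 differed between LPS + G-CDs and LPS by -0.86 (adjusted p = 0.0590) and Irak2 by -0.43 (adjusted p = 0.0967), and 0 of the 10 were called.

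**Figure D4:**
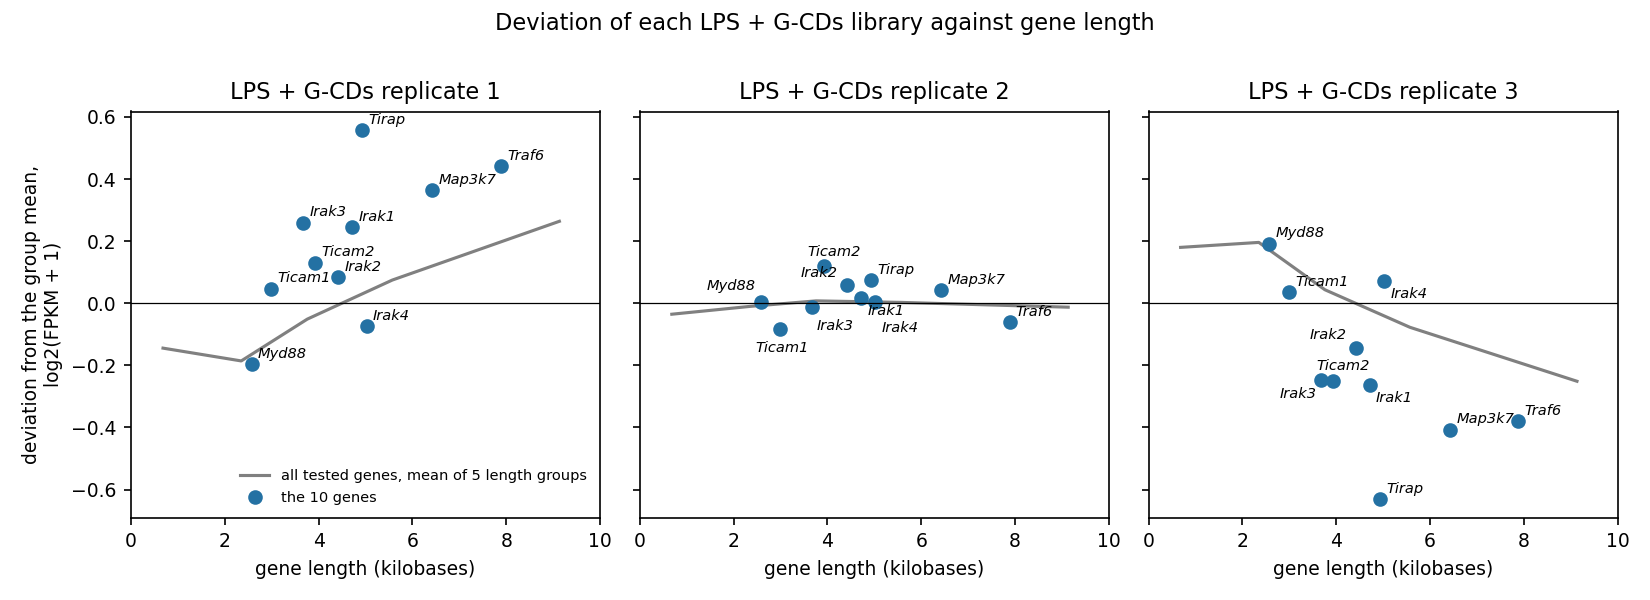
Deviation of each LPS + G-CDs library from the mean of its group in log2(FPKM + 1), against gene length in kilobases, for the 10 genes (blue points) and as the mean over all tested genes in 5 groups by gene length (gray line). From the shortest to the longest group the line goes from -0.14 to 0.26 in replicate 1 and from 0.18 to -0.25 in replicate 3, and it is nearly flat in replicate 2. Tirap lies farthest from it, at 0.56 in replicate 1 and -0.63 in replicate 3.

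Against control, LPS + G-CDs cells had 4 genes called higher, against 12.8% of all tested genes, and 2 called lower, against 12.4%. Under TPM scaling 3 of the 10 were higher, against 5.79% of the 14074 genes then tested, and 2 lower, against 24.3%. The median difference of all genes tested was then -0.37. By FPKM the log2 differences were 2.41 for Irak2 (adjusted p = 5.79e-07), 1.82 for Ticam1 (8.81e-05), 1.31 for Irak3 (0.000306) and 0.65 for Myd88 (0.0203). Those called lower were Ticam2, by -0.65 (adjusted p = 0.0409), and Irak1, by -0.49 (0.0393). Ticam2 lost its call in 7 of 20 alternatives (adjusted p of 0.0198 to 0.135 over all of them), Irak1 in 10 of 21 (0.0140 to 0.127) and Myd88 in 5 of 21 (0.00259 to 0.246). Over these alternatives the difference ran from -1.18 to -0.52 for Ticam2, from -0.94 to -0.36 for Irak1 and from 0.22 to 0.79 for Myd88. The libraries whose omission ended a call were control replicates 1 and 2, LPS replicate 3, and LPS + G-CDs replicates 2 and 3 for Ticam2, the same and LPS replicates 1 and 2 for Irak1, and control replicate 2 and LPS + G-CDs replicates 2 and 3 for Myd88. Tirap, called higher in LPS, was not called here (0.43, adjusted p = 0.298). Without LPS + G-CDs replicate 3 its difference was 0.75 and passed (adjusted p = 0.0320, in a range up to 0.923 over 21 alternatives), and without replicate 1 it was 0.16. The fit on the 6 libraries of this comparison called only Irak2, Irak3 and Ticam1, and so did the fits without control replicate 2 or LPS + G-CDs replicate 2.

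Around these 10 genes, 67 others of Toll-like receptor signaling were listed by role, of which 55 were tested. In LPS against control, 19 of the 55 were higher and 10 lower, against 15.8% and 15.6% of all tested genes, with a median of 0.30 beside 0.016. By FPKM the count of lower genes is near the share over all tested genes. Under TPM scaling, which let 57 of the listed genes pass the filter, 11 were higher and 13 lower, against 7.94% and 23.2% of all genes tested with it. Of the receptors and co-receptors, 7 of 15 were higher and 2 lower. Of the genes that modulate adaptors and IRAKs, 3 of 10 were higher and 3 lower. Of the partners of TAK1 and the ubiquitin enzymes, 4 of 14 were higher and 2 lower. Of the downstream kinases, 5 of 16 were higher and 3 lower. The largest differences were those of Tnfaip3, which encodes the ubiquitin-editing enzyme A20 (3.56), Ikbke, a kinase of interferon regulatory factors (3.21), Peli1, a ubiquitin ligase that binds IRAKs (2.85), and Birc3, a ubiquitin ligase of the inhibitor of apoptosis family (2.46). Cd14, the co-receptor that hands LPS to TLR4, differed by 2.40 and Pik3ap1, an adaptor to phosphoinositide 3-kinase, by 2.29.

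In LPS + G-CDs against LPS, 0 of these 55 genes were called higher and 1 lower, against 0.25% and 0.242% of all tested genes, with a median of -0.11 beside 0.017 for all tested genes. Tnfaip3 was at 44.2, 43.6 and 41.5 FPKM in LPS and 23.8, 20.2 and 15.6 in LPS + G-CDs, a log2 difference of -1.10 ± 0.18 (SE, adjusted p = 0.0432). Its control libraries were at 3.37, 2.95 and 2.04 FPKM, below all treated libraries. The call of Tnfaip3 was lost when any 1 of the LPS libraries, LPS + G-CDs replicate 2 or 3, or control replicate 2 was left out. It was also lost with a pseudocount of 0.1, without a filter on low values, under TPM scaling and in a fit of these 6 libraries alone.

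Over the 9 libraries, the genes whose log2(FPKM + 1) followed Irak2 most closely were Tnfrsf1b, which encodes a TNF receptor, the kinase gene Stk40 and the cytokine gene Il1a, with Pearson r of 0.999, 0.999 and 0.999. Those closest to Irak3 were Cd80, which encodes a costimulatory ligand of T cells, the calcium sensor gene Stim2 and Arhgef3, with r of 0.995, 0.993 and 0.993. These correlations are a description over 9 libraries in 3 groups, without a test.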

How the data were processed

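RNA from 9 libraries of RAW264.7 cells had been made into poly(A)-selected mRNA libraries and sequenced on an Illumina instrument. The authors deposited FPKM values per gene and library, with gene coordinates and lengths. GRCm38 and mm10 are the builds in the submitters' processing notes, and the aligner, counter and strand setting were not given in the sources used here. Locations and exons were taken from the deposited table and GENCODE M21, which gave equal coordinates for 9 of the 10 genes and not for Ticam2.

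FPKM times gene length, divided by a constant fitted for each library, fell on whole reads within 0.05 for 100% of values, which gave the reads per gene. Genes at 1 FPKM or more in at least 3 of 9 libraries were tested. The values, as log2(FPKM + 1), went into 1 model of 3 groups in limma 3.58.1 (R 4.3.3) by lmFit and eBayes with trend, two-sided, with Benjamini-Hochberg adjustment over 11585 genes. Data with 11585 genes were simulated, and 200 genes with higher mean FPKM were changed in the libraries standing for LPS. In LPS against control, the same test called 96% of genes changed 4-fold and 60% of those changed 2-fold. It called 44% of those at 0.5-fold and 16% of those changed 1.5-fold, and 8.47% of calls were false. In the measured data 3630 genes were called in LPS against control, so the rates there may differ. Ratios of 2 genes within a library were compared by exact permutation of libraries, two-sided. Python 3.11.15, pandas 2.3.3 and matplotlib 3.10.9 were used for tables and plots.

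Same-numbered LPS and control libraries deviated together only weakly from their group means (correlations of 0.103, 0.137 and 0.113), each above a limit of 0.1. Neither the labels nor the methods say what a number stands for, so whether the numbers pair libraries is not known. In LPS + G-CDs against LPS (0.0950, 0.0801 and 0.143) and against control (0.280, 0.0575 and 0.653) the correlations did not all reach this limit. The main model left the numbers out, and a block by replicate number was an alternative. The members and the lists of pathway genes, markers and motifs were chosen with earlier results of these data known. Named beside the 10 genes were up to 6 pathway genes per comparison with the largest called, non-overlapping differences, and the 3 closest profiles of the gene with the largest difference in each comparison. The alternatives were other pseudocounts, filters, scalings, variance models and thresholds, removal of trends with gene length and GC content, a replicate block, the 6 libraries of a comparison alone, and each library left out.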

Additional observations from a re-analysis of the deposited data

How the results depend on the processing

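Over 21 alternatives Irak2, Irak3 and Ticam1 kept their calls in LPS against control and in LPS + G-CDs against control. The precision is limited by 3 libraries per group. Without LPS replicate 1 or 2 only 3 of the 10 genes were called in LPS against control, Myd88 and Tirap being lost, and leaving out each library in turn gave 3 to 6, with Ticam2 added as lower without LPS + G-CDs replicate 3. With the replicate number as a block, the count was 6 with Ticam2 lower, and the block changed no other call of the 10 genes. In LPS + G-CDs against LPS, 1 gene (Irak3) was called without LPS + G-CDs replicate 1, where calls over all genes rose from 57 to 256, and 1 at the study's threshold, with 0 to 1 over the libraries left out. In LPS + G-CDs against control, 3 were called from the 6 libraries alone, and 3 to 6 over the libraries left out. Of the pathway genes in LPS + G-CDs against LPS, 0 were called with a pseudocount of 0.1, without a filter, under TPM or from the 6 libraries alone, 2 with trends in gene length and GC removed, 3 at the study's threshold, and 0 to 2 over the libraries left out.

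Differences near 0 changed sign. For Map3k7 in LPS against control the value was -0.071 under TPM. In LPS + G-CDs against LPS, Myd88 was at -0.15 under TPM, -0.074 with quantile normalization, -0.16 with the length trend removed, -0.18 with length and GC trends removed, and -0.078 to 0.12 over the libraries left out. Irak4 was at -0.15 under TPM, -0.0025 with median-of-ratios scaling, -0.0034 with voom and -0.029 to 0.042 over the libraries left out, where Ticam2 ran from -0.25 to 0.049. In LPS + G-CDs against control, Irak4 was at 0.0043 with the length trend removed and Traf6 at -0.36 under TPM. Over the libraries left out, Traf6 ran from -0.17 to 0.24 and Map3k7 from -0.37 to 0.015. The cause of these changes was not tested.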
